A study of Mus musculus with 2 samples.

Results

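ATP-binding cassette (ABC) transporters and the organic anion transporting polypeptides (Slco genes) were followed in livers of acetaminophen (APAP)-injured mice with or without AZD7986, an inhibitor of cathepsin C (CtsC). Members were all protein-coding rows of the count table named Slco or Abca to Abcg with a number, apart from Abcb11. This gave 52 of 24377 genes with a count in either library, namely 10 Slco and 42 Abc genes. Over both libraries together, 40 of the 52 reached 20 counts and were compared, and the other 12 are given by their counts only.

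Liver RNA was measured in 2 libraries by massive analysis of cDNA ends (MACE), which counts one read end per polyadenylated transcript, so that counts are not divided by gene length. The APAP + AZD7986 pool came from male C57BL/6J mice (C57BL/6 in the labels) given 300 mg/kg APAP i.p. and 4 oral doses of 5 mg/kg AZD7986 (12 h ahead of APAP, at the time of APAP, then 12 h and 24 h after it). The APAP + vehicle pool came from mice given the same APAP dose and 4 doses of the vehicle. In both groups, liver was taken 30 h after APAP from mice aged 9 to 11 weeks that had been fasted for 10 h before it, and RNA of 8 mice was mixed in equal shares. In the labels, the treatment field names AZD7986 for either library and only the titles separate the pools, so the direction of every ratio rests on the titles. Both pools were APAP-injured, and no uninjured liver enters the comparison. For this protocol the paper reported lower serum ALT and less liver necrosis in mice given AZD7986, so the pools also differed in injury. The part of injury in the ratios below was not tested. Each group is 1 pooled library, so there is no test of the treatment, and every interval below covers counting error alone.

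The AZD7986 library held 6700838 counts and the vehicle library 7657855, and counts were divided by size factors of 0.910 and 1.10. A ratio divides the normalised count in the AZD7986 pool by the one in the vehicle pool and is followed by its exact 95% counting interval in brackets, and CPM is the count scaled to a library total of 1000000. A gene was called higher or lower where the ratio was at least 1.5 or at most 0.667 and the interval excluded 1, among genes with at least 20 summed counts. Hepatocyte markers were abundant in both libraries. Alb gave 217749 counts in the AZD7986 pool and 267058 in the vehicle pool, Ttr gave 70246 and 63250, and Apoa1 gave 65336 and 72254.

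Slco carriers take up bile acids, thyroid and steroid hormones, prostaglandins and many drugs without using ATP, and hepatocytes hold several of them on the sinusoidal side that faces the blood. ABC transporters use ATP to move a substrate out of the cell or across an organelle membrane. In hepatocytes they load bile at the canalicular membrane, return conjugates to the blood at the sinusoidal membrane, and serve peroxisomes and mitochondria, while macrophages use some of them to release cholesterol.

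Among the 40 members with enough counts, 3 were called higher in the AZD7986 pool (7.5%) and 5 lower (12.5%). Over the 11116 protein-coding genes with that count, 4.44% were called higher and 8.23% lower, so the share of called members was not far from the background in either direction. By the interval alone, 7 members lay above 1 and 7 below (17.5% each), against 15.4% and 17.0% of protein-coding genes. The median log2 ratio was 0.06 over the members and −0.06 over protein-coding genes. Without scaling of the libraries, which shifts every log2 ratio by −0.27, 0 members were called higher and 9 lower. The 3 higher members were Slco1b2, Slco1a1 and Abca8a, and the 5 lower members were Abca1, Abcg1, Abcc9, Abcb1b and Abcc1.

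**Figure D1:**
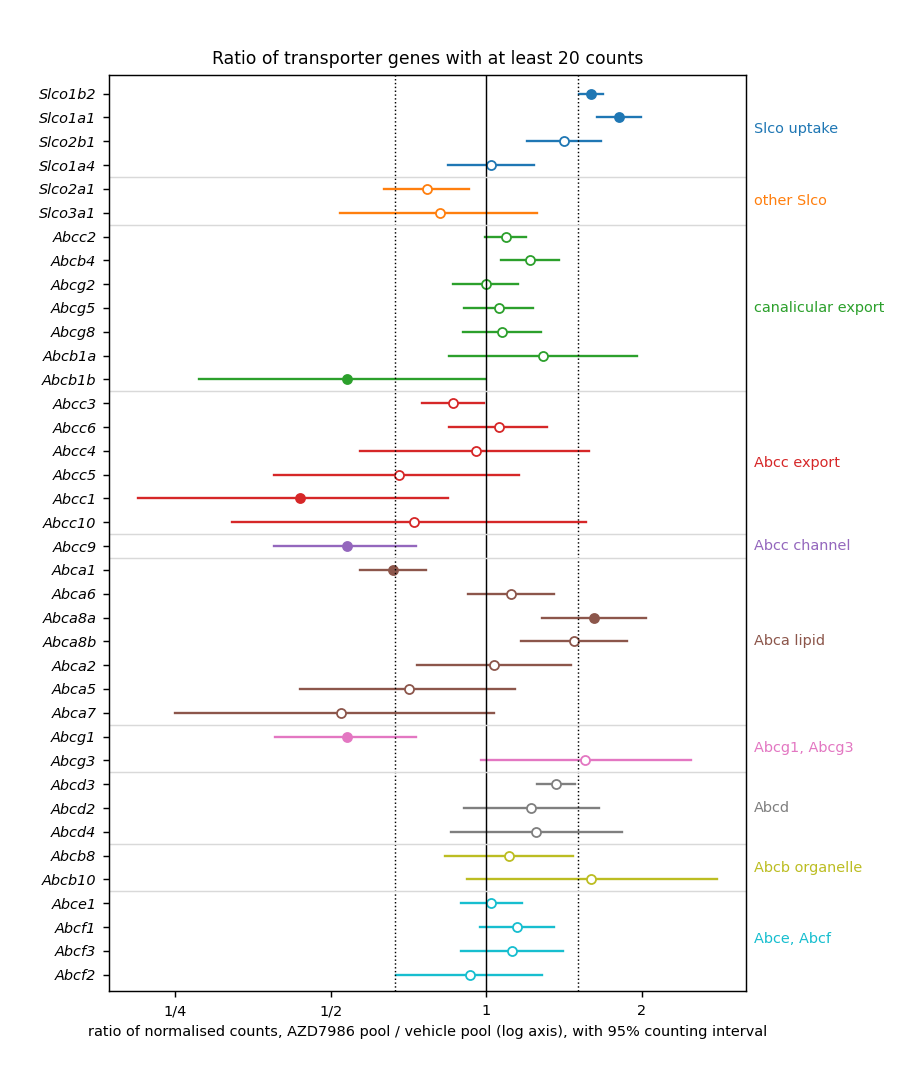
Ratio of normalised counts (AZD7986 pool over vehicle pool, log axis) for 38 of the 40 members compared, grouped by role, with lines for the 95% counting interval, filled points for called members and dotted lines at 1.5 and 0.667. All 4 hepatocyte Slco carriers lie at or above 1, the canalicular exporters cluster around 1 apart from Abcb1b at 0.536, and Abca1, Abcg1, Abcc9 and Abcc1 lie to the left.

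Of the 4 Slco carriers known from hepatocytes, 2 were called higher in the AZD7986 pool and 0 lower. Slco1b2, the mouse counterpart of the human OATP1B carriers and the most counted member, had 3211 counts in the AZD7986 pool and 2436 in the vehicle pool. This corresponds to 479 and 318 CPM and a ratio of 1.59 [1.51, 1.68]. Of all member counts, Slco1b2 took 27.6% [26.8, 28.4] in the AZD7986 pool and 21.2% [20.4, 21.9] in the vehicle pool (exact binomial intervals).

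Slco1a1, a carrier of bile acids and steroid conjugates, had 1034 counts in the AZD7986 pool and 691 in the vehicle pool, a ratio of 1.81 [1.64, 1.99]. Slco2b1, which carries steroid sulphates and drugs, gave 323 and 276 counts and a ratio of 1.41 [1.20, 1.66], above 1 but under the fold needed for a call. Slco1a4, a carrier of bile acids and cardiac glycosides, lay at 1, with 203 counts in the AZD7986 pool and 240 in the vehicle pool and a ratio of 1.02 [0.843, 1.24]. Together the 4 genes held 712 CPM in the AZD7986 pool and 476 CPM in the vehicle pool, and their median log2 ratio was 0.58. Without scaling, Slco1b2 and Slco1a1 stayed above 0 on the log2 scale (0.40 and 0.58) and lost their calls.

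None of the other Slco genes was called. Slco2a1, the prostaglandin transporter, had 181 counts in the AZD7986 pool and 285 in the vehicle pool, a ratio of 0.766 [0.633, 0.927], whereas the interval of Slco3a1 covered 1 (37 and 55 counts, 0.812 [0.520, 1.25]). Slco4a1 (1 and 7 counts), Slco4c1 (0 and 1), Slco1a5 (1 and 0) and Slco1a6 (1 and 0) were too sparse for a ratio.

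Slco1b2, Slco1a4 and Slco1a1 lie next to each other on chromosome 6 of GRCm38 (mm10). Slco1b2 spans 141629518 to 141686646 on the plus strand, Slco1a4 141805440 to 141856199 and Slco1a1 141907282 to 141946962, both on the minus strand. Their upstream sequences are shown because these neighbours differed in ratio. The 250 bases before each RefSeq start (GRCm38.p6) are given 5′ to 3′ on the strand of the gene, with capitals for AGGTCA, the core recognition sequence of many nuclear receptors, and GTTAAT, a part of the HNF1 motif, on either strand.
Slco1a1, chr6:141946963-141947212, minus strand: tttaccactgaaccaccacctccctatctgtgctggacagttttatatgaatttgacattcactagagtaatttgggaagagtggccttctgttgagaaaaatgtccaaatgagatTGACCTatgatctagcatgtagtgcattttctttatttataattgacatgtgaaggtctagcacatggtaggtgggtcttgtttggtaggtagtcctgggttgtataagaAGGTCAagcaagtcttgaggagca
Slco1b2, chr6:141629268-141629517, plus strand: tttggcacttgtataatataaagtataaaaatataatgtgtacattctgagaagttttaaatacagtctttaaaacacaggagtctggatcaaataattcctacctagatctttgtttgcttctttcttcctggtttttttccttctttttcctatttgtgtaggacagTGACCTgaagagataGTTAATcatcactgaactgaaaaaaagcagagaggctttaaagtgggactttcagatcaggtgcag
Slco1a4, chr6:141856221-141856470, minus strand: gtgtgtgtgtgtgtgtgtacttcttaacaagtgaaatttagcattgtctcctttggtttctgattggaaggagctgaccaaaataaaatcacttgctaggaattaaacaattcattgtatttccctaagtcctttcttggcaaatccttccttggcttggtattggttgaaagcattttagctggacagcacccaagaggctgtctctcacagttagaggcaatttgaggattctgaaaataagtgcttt

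Slco1a1 held 2 matches of AGGTCA or its reverse complement, Slco1b2 held 1, next to the single GTTAAT, and the Slco1a4 stretch held 0 of either. These motifs were chosen after the ratios were seen. In the 300-base windows of all genes (250 bases before to 50 after the start, both strands), AGGTCA occurred in 16.3% of 32851 windows and in 9 of 52 windows of the 41 members found in the RefSeq table (17.3%). GTTAAT occurred in 7.1% of all windows and in 1 of the 52, that of Slco1b2. AGGTCA also occurred in windows of members that were not called, namely Abcc2 (ratio 1.09), Abcg2 (0.996) and Abcc10 (0.724). The sparse Abcb6 and Slco4a1 held it as well. A match describes these letters only, and a link between motif and ratio was not tested.

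**Figure D2:**
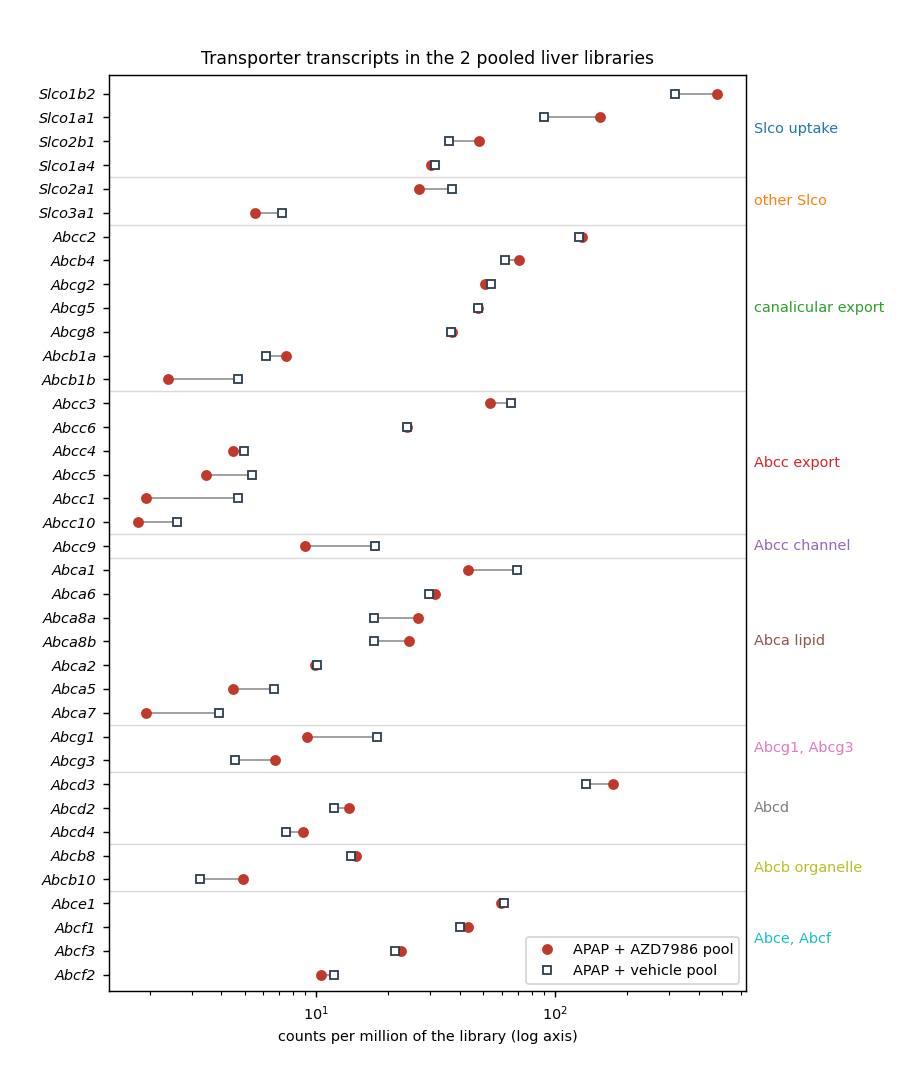
CPM in the APAP + AZD7986 pool (filled circles) and the APAP + vehicle pool (open squares) for 38 of the 40 members compared, on a log axis and grouped by role. Slco1b2 leads with 479 and 318 CPM, and the separation of the symbols is wide for Abca1, Abcg1, Abcc9 and Abcb1b, where the AZD7986 pool lies to the left, and small for most canalicular exporters.

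Exporters of the canalicular membrane, which empty into bile, included 1 gene called lower, Abcb1b, and 0 called higher among 7. Abcc2, which exports bilirubin glucuronides and glutathione conjugates, had 874 counts in the AZD7986 pool and 969 in the vehicle pool, a ratio of 1.09 [0.992, 1.19]. Abcb4, the phosphatidylcholine floppase of bile, had 476 and 473 counts and was slightly higher at 1.21 [1.07, 1.38]. Abcg2, which exports urate and drugs, had 341 and 413 counts, a ratio of 0.996 [0.861, 1.15]. The intervals of Abcc2 and Abcg2 exclude a difference of 1.5-fold in either direction by counting error, though not by differences between the mice pooled. All 7 canalicular genes summed to 347 CPM in the AZD7986 pool and 337 CPM in the vehicle pool, with a median log2 ratio of 0.10.

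Abcb1a and Abcb1b, the 2 mouse genes of the drug pump P-glycoprotein, stood apart from each other. Abcb1b had 16 counts in the AZD7986 pool and 36 in the vehicle pool, a ratio of 0.536 [0.278, 0.992] and thus only just called, while Abcb1a had 50 and 47 counts and a ratio of 1.28 [0.845, 1.95]. The call of Abcb1b was lost with a stricter counting interval. Of the 50-base stretches in the last 500 bases of annotated Abcb1b transcripts, 17.4% also occur in Abcb1a or Abcb4 transcripts. The last 500 bases of Abcb1a held 0 shared stretches. How many reads came from the shared stretches is not known.

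Abcg5 and Abcg8 encode the subunits of a single sterol exporter and are transcribed head to head from chromosome 17, where their annotated 5′ parts overlap. Abcg5 had 320 counts in the AZD7986 pool and 366 in the vehicle pool, a ratio of 1.06 [0.905, 1.23]. Abcg8 had 249 and 280 counts, a ratio of 1.07 [0.901, 1.28]. The ratio of Abcg5 over that of Abcg8 was 0.983 [0.778, 1.24]. Their RefSeq starts, at 84683011 on the minus strand and 84683121 on the plus strand, leave 109 bases between them. This shared stretch is printed on the plus strand because both genes read away from it. Capitals mark TTATCT, the reverse complement of the GATA factor motif AGATAA, of which the stretch holds 2.
Abcg5 to Abcg8, chr17:84683012-84683120, plus strand: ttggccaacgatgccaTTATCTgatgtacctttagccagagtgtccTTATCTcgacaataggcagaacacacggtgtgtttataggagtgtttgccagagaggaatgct
AGATAA occurred in 11.2% of all 300-base windows and in 4 of the 52 member windows (7.69%). These include the windows of Abcg5 and Abcg8, which overlap and both hold the printed stretch. TATAAA and TGACNNNGC were scanned as well and occurred in 23.1% and 15.4% of member windows, against 13.6% and 12.4% of all windows.

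Abcc exporters outside the canaliculus included 1 gene called lower, Abcc1, and 0 called higher among 6. Abcc3, which returns glucuronides including that of APAP to the blood, had 358 counts in the AZD7986 pool and 501 in the vehicle pool, a ratio of 0.862 [0.751, 0.990]. Abcc6, the hepatocyte protein needed for ATP release, had 160 and 183 counts (1.06 [0.848, 1.31]), and Abcc4, a sinusoidal exporter of bile acids and cyclic nucleotides, 30 and 38 counts (0.953 [0.570, 1.58]). Abcc1, which exports glutathione conjugates and leukotriene C4 from many cell types, had the lowest ratio of the 40 members compared, with 13 counts in the AZD7986 pool and 36 in the vehicle pool, a ratio of 0.436 [0.212, 0.842]. It was the 1 member still called at 2-fold, a threshold passed by 2.96% of protein-coding genes downwards and 1.09% upwards, and it lost its call with a stricter counting interval. Abcc5 (23 and 41 counts, 0.677 [0.388, 1.16]) and Abcc10 (12 and 20 counts, 0.724 [0.323, 1.56]) had wide intervals that covered 1. The median log2 ratio of the 6 genes was −0.34, and Abcc12 had only 3 and 12 counts. Abcc9, the regulatory subunit of a potassium channel of vascular smooth muscle and pericytes, had 60 counts in the AZD7986 pool and 135 in the vehicle pool, a ratio of 0.536 [0.389, 0.732]. An antisense RNA gene overlaps Abcc9, and its reads cannot be told apart from those of Abcc9 without the strand.

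The cholesterol efflux genes Abca1 and Abcg1 were both lower in the AZD7986 pool. Abca1, which loads cholesterol and phospholipid onto apolipoprotein A-I, had 291 counts in the AZD7986 pool and 532 in the vehicle pool. Its ratio of 0.660 [0.570, 0.763] lies just inside the threshold. Abcg1, which passes cholesterol to high-density lipoprotein and is abundant in macrophages, had 61 and 137 counts, a ratio of 0.537 [0.391, 0.732]. Abca1 lies on chromosome 4 (53030787 to 53159895, minus strand) and Abcg1 on chromosome 17 (31057675 to 31117988, plus strand). Other genes known to be driven by the liver X receptors (LXR), as both are, were set beside them. This list was drawn from outside the members, so no further ABC gene driven by LXR enters it. Among the 7 listed genes with enough counts, 1 was called higher and 0 lower, with a median log2 ratio of 0.27. Cyp7a1, which sets the pace of bile acid synthesis from cholesterol, was the called one (312 and 119 counts, 3.16 [2.55, 3.94]), and it is also among the pericentral hepatocyte markers called higher. Apoe stood at 1.26 [1.25, 1.27] and Scd1, a fatty acid desaturase, at 0.803 [0.785, 0.822]. Nr1h3, which encodes LXR alpha, had 837 counts in the AZD7986 pool and 740 in the vehicle pool (1.37 [1.24, 1.51]).

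Abca8a and Abca8b, adjacent genes of a lipid transporter branch on chromosome 11, both had intervals above 1. Abca8a had 178 counts in the AZD7986 pool and 133 in the vehicle pool, a ratio of 1.62 [1.28, 2.04], and Abca8b had 164 and 134 counts, a ratio of 1.48 [1.17, 1.87], just under the fold for a call. An antisense gene overlaps Abca8b. Abca6 of the same cluster stayed nearer to 1 (211 and 228 counts, 1.12 [0.922, 1.35]). Abca5 (30 and 51 counts, 0.710 [0.437, 1.14]), Abca2 (66 and 77, 1.03 [0.733, 1.46]) and Abca7 (13 and 30, 0.523 [0.250, 1.03]) had intervals that covered 1, although Abca7 was called lower when libraries were scaled by their totals. Abca3 (4 and 8 counts), Abca9 (6 and 5), Abca14 (2 and 2), Abca4 (0 and 1) and Abca17 (0 and 1) were too sparse for a ratio. The Abca genes as a whole had a median log2 ratio of 0.05 over 7 genes, with 1 called in each direction.

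None of the 7 organelle transporters with enough counts was called. Abcd3, which brings branched fatty acids and bile acid intermediates into peroxisomes, had 1169 counts in the AZD7986 pool and 1033 in the vehicle pool, a ratio of 1.37 [1.26, 1.49]. Abcd2 (92 and 91 counts, 1.22 [0.903, 1.65]), which imports very long chain fatty acids into peroxisomes, and the lysosomal cobalamin exporter Abcd4 (59 and 57 counts, 1.25 [0.853, 1.83]) had intervals that covered 1. The mitochondrial Abcb8 had 98 and 107 counts (1.11 [0.832, 1.47]). Abcb10, a mitochondrial protein linked to haem synthesis, had 33 and 25 counts (1.59 [0.919, 2.79]). The lysosomal Abcb9 had 12 counts in the AZD7986 pool and 4 in the vehicle pool, too few to be tallied, and Abcb6 had 0 and 1. By the comparison of transcript ends used for Abcb1b, 82.9% of the stretches of Abcb6 also occur in another gene. A further gene overlaps Abcb6 on the same strand. Whether this lowered the Abcb6 count was not tested, so the count alone does not show low expression. Abcg3, a rodent gene, had 45 and 35 counts (1.55 [0.976, 2.49]).

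Abce1 and the Abcf genes carry the ATPase fold without a membrane part and act in translation and ribosome recycling. All 4 had intervals that covered 1. Abce1 had 397 counts in the AZD7986 pool and 469 in the vehicle pool (1.02 [0.892, 1.17]), Abcf1 290 and 305 (1.15 [0.974, 1.35]), Abcf3 152 and 164 (1.12 [0.891, 1.40]) and Abcf2 70 and 91 (0.928 [0.670, 1.28]).

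**Figure D3:**
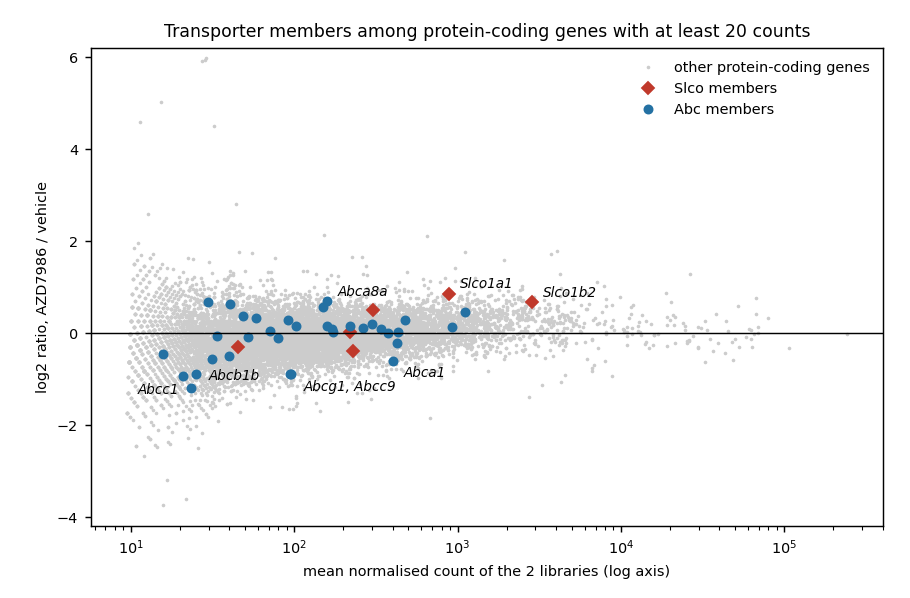
Log2 ratio (AZD7986 pool over vehicle pool) against the mean normalised count of the 2 libraries (log axis) for protein-coding genes with at least 20 summed counts, with Slco members as red diamonds, Abc members as blue circles and called members named. The called members lie within the cloud of other genes, Slco1b2 and Slco1a1 at its upper edge among well counted genes.

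Neighbouring members on one chromosome could be compared by the ratio of their ratios, which does not depend on how the libraries are scaled. Of 10 pairs within 200 kb and with enough counts, 5 differed beyond counting error (exact conditional 95% intervals, not adjusted for the 10 pairs). Slco1b2 over Slco1a4 gave 1.56 [1.28, 1.90], and Slco1a4 over Slco1a1 gave 0.565 [0.455, 0.701]. In the cluster on chromosome 5, Abcb1a over Abcb1b gave 2.39 [1.12, 5.24] and Abcb1b over Abcb4 gave 0.442 [0.226, 0.830]. Abca8a over Abca6 gave 1.45 [1.07, 1.96], while Abca8b over Abca8a at 0.914 [0.655, 1.28] was not detectably different from 1. The differing pairs lay on chromosomes 5, 6 and 11 and are not independent, as Slco1a4 and Abcb1b recur among them. No share over other gene pairs was computed. Among single protein-coding genes, 15.4% had an interval above 1 and 17.0% one below, so the 5 pairs are a description only.

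Other carriers of hepatocytes were set beside the members. Of 15 carriers with enough counts, 3 were called higher in the AZD7986 pool and 0 lower, with a median log2 ratio of 0.36. Slc10a1, the sodium-dependent bile acid uptake carrier, had 1797 counts in the AZD7986 pool and 1244 in the vehicle pool (1.74 [1.62, 1.88]). Slc22a5, the carnitine carrier, had 57 and 45 counts (1.53 [1.02, 2.31]). Of 10 genes listed for the canalicular scaffold and its traffic, 9 were in the count table. Among these, 0 were called higher and 2 lower, with a median log2 ratio of 0.05. By the interval alone, 2 lay above 1 and 3 below. The 2 called lower were the actin linkers Msn (233 and 556 counts, 0.506 [0.432, 0.590]) and Ezr (41 and 75 counts, 0.660 [0.440, 0.978]), whereas Rdx, the linker of hepatocyte canaliculi, stood at 1.22 [1.12, 1.32]. Rab11a, with 337 counts in the AZD7986 pool and 602 in the vehicle pool (0.676 [0.590, 0.773]), narrowly missed the fold for a call. Bulk RNA does not show which cells gave the Msn and Ezr reads.

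Among 21 transcription factors known to control transporter genes, 1 was called higher and 2 lower, and the median log2 ratio was −0.04. The xenobiotic receptor CAR, encoded by Nr1i3, had 92 counts in the AZD7986 pool and 50 in the vehicle pool (2.22 [1.56, 3.20]). Its relative PXR, encoded by Nr1i2, had 314 and 273 counts (1.39 [1.18, 1.64]). The stress-responsive factor Cebpb had 561 and 1072 counts (0.632 [0.569, 0.700]) and the dioxin receptor gene Ahr 75 and 150 (0.603 [0.451, 0.801]). The bile acid receptor FXR, encoded by Nr1h4, and the hepatocyte factor Hnf4a had intervals that covered 1 (1.04 [0.916, 1.18] and 0.937 [0.868, 1.01]).

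**Figure D4:**
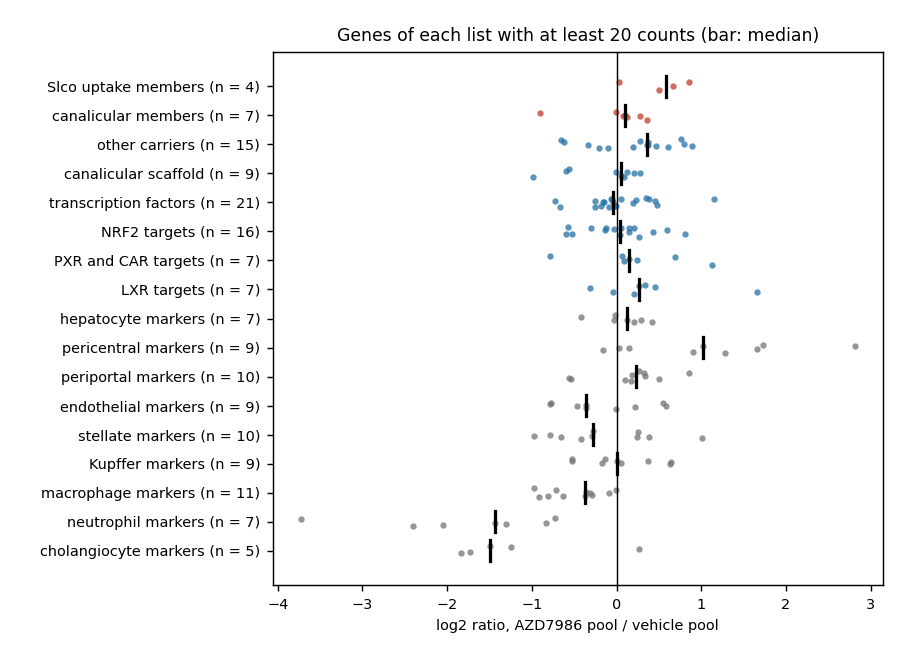
Log2 ratio (AZD7986 pool over vehicle pool) of the genes with at least 20 summed counts in 2 groups of members (red), the companion lists (blue) and the cell type marker lists (grey), with a bar at each median and points spread vertically for clarity. The Slco uptake genes have a median of 0.58 and the pericentral markers one of 1.02, while neutrophil and cholangiocyte markers have medians of −1.43 and −1.49.

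Cell type markers also differed between the pools. In bulk RNA, fewer cells of a type and less RNA per cell cannot be told apart. Hepatocyte markers had a summed level of 72967 CPM in the AZD7986 pool and 74872 CPM in the vehicle pool, with a median log2 ratio of 0.13 over 7 genes. Pericentral hepatocyte markers, of cells around the central vein, summed to 1281 and 734 CPM, with 6 of 9 called higher and 1 with an interval below 1. The most counted of them gave 5483 of 8582 counts of this list in the AZD7986 pool and 2730 of 5619 in the vehicle pool. Periportal markers summed to 5459 and 4941 CPM, with 1 of 10 called higher. Both marker lists stand beside the Slco genes, and their part in the Slco result was not tested. Markers of monocytes and infiltrating macrophages summed to 760 CPM in the AZD7986 pool and 1298 CPM in the vehicle pool, with 4 of 11 called lower. Of the 5091 counts behind this sum in the AZD7986 pool and 9937 in the vehicle pool, 2850 and 6492 were of Fn1 (fibronectin), which hepatocytes also make. Kupffer cell markers summed to 486 and 556 CPM, with 2 of 9 called higher. Stellate cell markers summed to 396 and 481 CPM, with 3 of 10 called lower and 1 higher, and sinusoidal endothelial markers to 208 and 238 CPM, with 2 of 9 called lower and 1 higher. Neutrophil markers summed to 47.8 and 132 CPM, with 5 of 7 called lower. Those of cholangiocytes summed to 56.4 and 189 CPM, with 3 of 5 called lower and Cftr at 0 and 1 counts. Spp1 (osteopontin), which other cells also make, gave 270 of 378 counts of this list in the AZD7986 pool and 1164 of 1444 in the vehicle pool, and Krt7, a bile duct keratin, had 14 and 14. These lists stand beside Abca1, Abcg1, Abcc1, Abcc9, Abcb1b, Slco2a1, Msn and Ezr, and their part in those ratios was not tested.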

How the data were processed

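MACE 3′ mRNA sequencing was performed on pooled liver RNA of 8 mice per group. The authors used unique molecular identifiers to drop duplicates, ran cutadapt, clipped poly(A) tails, aligned the reads with mm10 and deposited whole-number counts per gene from HTSeq. The deposited columns headed TPM equalled CPM, each count scaled to a library total of 1000000 with no gene length, and a further deposited signal equalled the count divided by 1 constant per library. It is left blank for 3383 genes. The sources used here give no strand setting, aligner or annotation release, so overlapping genes and antisense partners of members cannot be told apart. Besides Abcc9 and Abca8b, antisense genes overlap Abcb1b, Slco2a1, Slco2b1, Slco3a1 and Abcb10, among others. The methods and the labels name different MACE kits. The table holds 6 further columns of per-sample values, which were not used. Rows with no symbol held 3.71% of counts in the AZD7986 pool and 3.70% in the vehicle pool and were kept.

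From the counts, DESeq2 1.42.0 (R 4.3.3) gave median-of-ratios size factors. Ratios and exact (Clopper-Pearson) intervals of the split of the summed count were computed in Python 3.11.15 with scipy 1.17.1. A count of 0 was set to 1 for the ratio. The method was tested on simulated libraries with Poisson counts and no spread between mice. That test covers the intervals and calls under counting error alone and says nothing about differences between the mice pooled. With 1 library per group no p-value of a difference was computed, and intervals cover counting error only. Members and lists were chosen with earlier results of these data known. A few genes that enter the counts and medians are not reported here by name. The other members are named with their counts, in full where called or among the 3 most counted of a role group, and of other lists the 3 most counted and the called genes qualify. The few further genes named from those lists, such as Nr1i2, Nr1h4, Nqo1 and Gclc, were chosen after their values were seen. Coordinates are those of GENCODE M21 and upstream sequences those of RefSeq (GRCm38.p6). Alternatives were TMM (edgeR 4.0.16), library-total or no scaling, minimum counts of 10, 50 or none, a stricter interval and a 2-fold threshold.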

Additional observations from a re-analysis of the deposited data

How the results depend on the processing

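TMM scaling kept all 8 calls, and library-total scaling kept them and added Abca7 to the lower members. Without scaling, 0 members were higher and 9 lower, because every log2 ratio moves by −0.27: Slco1b2, Slco1a1 and Abca8a lost their calls, and Slco2a1, Abca5, Abca7 and Abcc5 joined the 5 lower members. The median log2 ratio was then 0.31 for the hepatocyte Slco genes, −0.17 for the canalicular exporters and −0.18 for Abce1 and the Abcf genes. A stricter counting interval left 3 lower members, without Abcb1b and Abcc1, and kept the 3 higher ones. At 2-fold, 0 members were higher and 1, Abcc1, was lower. With a minimum summed count of 10 or none, Abcb9 was added to the higher members, and with one of 50 Abcc1 was left out. Single log2 ratios moved beyond their counting interval for 1 of 40 members under library-total scaling and for 13 of 40 without scaling, and no called member changed sign. Each scaling moves all log2 ratios by the same amount, so those that moved were the most counted members, whose intervals are narrowest. No paired analysis was possible because each group is 1 pooled library, and for the same reason no library could be left out. Depth limits the sparse members, as for Abcc10 (12 and 20 counts), whose interval runs over 0.323 to 1.56.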

Other observations

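Targets of the oxidative stress factor NRF2, which is known to act on several Abcc genes, had a median log2 ratio of 0.05 over 16 genes, with 2 called higher and 1 lower in the AZD7986 pool. Gclc, a subunit of the enzyme that limits glutathione synthesis, had 697 counts in the AZD7986 pool and 1209 in the vehicle pool (0.696 [0.633, 0.764]), and the haem oxygenase gene Hmox1 had 165 and 300 counts (0.664 [0.546, 0.805]). The glutathione transferase genes Gsta2 (1.76 [1.45, 2.14]) and Gstm3 (1.51 [1.24, 1.84]) were the called higher ones, and Nqo1 stood at 1.03 [0.743, 1.42]. Reads can be shared within the Gsta and Gstm families.

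Targets of the xenobiotic receptors PXR and CAR had a median log2 ratio of 0.15 over 7 genes. A further 2 listed genes stayed under 20 summed counts. Cyp2b10 of this list had only 16 counts in the AZD7986 pool and 12 in the vehicle pool, with an interval that covered 1 (1.61 [0.714, 3.73]). Cyp3a11, a main drug-oxidising cytochrome of mouse liver, had 1201 counts in the AZD7986 pool and 662 in the vehicle pool (2.19 [1.99, 2.41]), while Cyp3a25 and Cyp3a13 lay at 1.06 [0.989, 1.14] and 1.11 [1.02, 1.20]. Gadd45b was the 1 called lower (25 and 52 counts, 0.580 [0.345, 0.952]).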
